A study of Mus musculus with 2 samples.

Results

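Basophils are rare granulocytes of the blood and of inflamed tissue. They bind IgE through a high-affinity receptor, store histamine and proteases in granules, and release IL-4, IL-13, IL-6 and chemokines such as CCL3 and CCL4 within hours of activation. In tumours they have been described as a minor population that signals to T cells and phagocytes. Here they were picked out of the single-cell RNA data of CD45-positive cells of subcutaneous mouse KP tumours, as barcodes with a UMI of at least 2 of 5 basophil genes. A UMI, or unique molecular identifier, marks one captured RNA molecule, so UMIs count molecules and not reads. The 5 genes were Mcpt8 (a basophil serine protease), Gata2 (a transcription factor of basophils and mast cells), Hdc (the enzyme that makes histamine), Ms4a2 (the beta chain of the IgE receptor) and Cyp11a1 (a steroid-synthesis enzyme). A barcode was left out if it had more than 1 UMI of Cd3e, Cd3d and Cd3g summed (T cells), more than 2 of C1qa, C1qb and C1qc summed (macrophages), or any of Cd79a (B cells). The rule gave 101 barcodes of 11197 that passed the filter, 31 of 5693 from the KPT library and 70 of 5504 from the KP library. The members were chosen by these genes, so the values of the genes are a description of the choice.

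The KPT library is labelled Tdg KO, that is, without the gene for thymine DNA glycosylase, which removes thymine and oxidised forms of methylcytosine from DNA. The KP library is labelled WT for Tdg, and both come from p53-deficient tumours as the study's title names them. Live CD45-positive cells were sorted from tumours dissected at day 14 after inoculation and captured with the 10x Genomics 3′ kit. The sources used here do not state which cells of the KPT tumours lack Tdg, or how many tumours each library pooled. There was 1 library per genotype, so no difference between KPT and KP could be tested, and every interval in what follows is a 95% interval for counting error only. Cells of 1 library are not replicates, and a difference between the libraries cannot be told apart from a difference between 2 captures.

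The KPT library held 52586319 UMIs in 5896 barcodes and the KP library 39819010 UMIs in 5604 barcodes. Barcodes that passed the filter had a median of 6419 UMIs in KPT and 5378 in KP. The basophils were shallower in RNA than their libraries but alike to each other, with a median of 4537 UMIs in KPT (1386 to 12510) and 4449.5 in KP (1416 to 17536), and a median of 1002 and 1110 genes. Mitochondrial UMIs made up a median of 1.04% in KPT basophils and 1.00% in KP basophils. The libraries shared 8 barcode sequences, of which 0 belonged to basophils. Tdg itself had 4 UMIs in KPT basophils and 6 in KP basophils, or 25.7 and 16.8 UMIs per 1000000 UMIs of the barcodes (CPM), a ratio of 1.53 (0.317 to 6.44). Over all other barcodes Tdg stood at 26.5 CPM in KPT and 25.1 CPM in KP. A 3′ tag does not show whether a deleted stretch lies elsewhere in the transcript, so these values do not check the genotype.

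The promoters of the 3 interleukin genes are shown because Il4, Il13 and Il6 are the cytokines on which the account of these cells turns. They are the 250 bases before a RefSeq start of each gene (GRCm38.p6, read 5′ to 3′ on the gene's own strand). For Il4, which has 2 starts in the table, the upstream one is printed. Capitals mark AGATAA and TGATAA, 2 forms of the site bound by GATA factors such as Gata2, and GGAAAA, the core of the site bound by NFAT factors, on either strand; none of these overlap here. The Il4 window is chr11:53618666-53618915 on the minus strand, the Il13 window chr11:53634703-53634952 on the minus strand and the Il6 window chr5:30012864-30013113 on the plus strand.
Il4: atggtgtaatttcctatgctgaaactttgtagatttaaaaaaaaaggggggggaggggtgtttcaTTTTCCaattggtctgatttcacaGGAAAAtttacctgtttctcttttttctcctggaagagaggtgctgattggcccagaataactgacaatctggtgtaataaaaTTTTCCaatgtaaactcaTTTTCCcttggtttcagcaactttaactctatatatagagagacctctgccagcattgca
Il13: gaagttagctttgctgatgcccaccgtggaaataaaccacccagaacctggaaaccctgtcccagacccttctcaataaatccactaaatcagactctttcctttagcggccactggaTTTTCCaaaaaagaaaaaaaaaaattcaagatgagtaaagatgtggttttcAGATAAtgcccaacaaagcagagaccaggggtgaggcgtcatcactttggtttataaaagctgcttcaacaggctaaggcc
Il6: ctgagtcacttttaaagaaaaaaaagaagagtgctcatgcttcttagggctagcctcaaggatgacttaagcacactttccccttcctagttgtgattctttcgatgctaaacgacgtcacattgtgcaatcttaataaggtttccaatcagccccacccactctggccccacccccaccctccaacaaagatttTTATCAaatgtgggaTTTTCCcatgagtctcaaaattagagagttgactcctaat
The printed Il4 window held 4 GGAAAA matches and no match to either GATA form, and the window of the other Il4 start (chr11:53617339-53617588) held no match to any of the 3 motifs. The Il13 window held 1 AGATAA and 1 GGAAAA, and the Il6 window 1 TGATAA and 1 GGAAAA. Among 32851 windows of the same length in the table, 9.99% held AGATAA, 7.94% held TGATAA and 20.4% held GGAAAA. A match is a description of letters and was not tested as a binding site.

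Basophils made up 0.545% of filtered barcodes in KPT (0.370 to 0.772, exact Clopper-Pearson) and 1.27% in KP (0.993 to 1.604). The KPT share was 0.428 times the KP share, with a counting interval of 0.271 to 0.662. T cells were the largest part of both libraries, so the share was also taken over barcodes outside the T cell gate. That gate took barcodes with 2 or more Cd3e, Cd3d and Cd3g UMIs summed, fewer than 3 of C1qa, C1qb and C1qc, and no Cd79a UMI. It was then 1.21% in KPT and 2.54% in KP, a ratio of 0.475 (0.301 to 0.735). A further 11 KPT and 9 KP barcodes had 2 or more of the marker genes but failed an exclusion. They were deep, with a median of 26707 UMIs in KPT and 9227 in KP, and whether they are basophils captured together with another cell was not tested. With them added the share was 0.738% in KPT and 1.44% in KP, and the ratio 0.514 (0.345 to 0.757). No doublet caller was run. The direction of the share was the same under each alternative tried.

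Most members had more marker genes than the rule asked for, which describes the choice and does not vouch for each barcode. Barcodes described below with genes of mast cells (11280 UMIs), NK cells (6017 UMIs) and dendritic cells (16975 UMIs) had 3, 4 and 5 of the markers. In KPT, 7 of the 31 had all 5 genes, 12 had 4, 11 had 3 and 1 had 2. In KP, 19 of the 70 had all 5, 32 had 4, 14 had 3 and 5 had 2. Just outside it, 135 KPT and 325 KP barcodes had 1 marker and passed the exclusions, and for 130 and 313 of them the 1 gene was Hdc. An Il4 UMI was present in 1 of these 135 KPT barcodes and in 0 of the 325 KP barcodes, and an Il6 UMI in 5 of each. An Il13 UMI was present in 3 of the KPT and 2 of the KP barcodes. Few of them had these UMIs, but single barcodes reached 22 Il6 UMIs in KPT and 32 Il13 UMIs in KP.

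Cyp11a1 (chr9:58006411-58027023) was the most widely detected marker with Hdc (chr2:126593667-126619299). Cyp11a1 had 204 UMIs in 29 of 31 KPT basophils and 642 UMIs in 69 of 70 KP basophils. Hdc had 904 UMIs in 30 KPT basophils and 1972 UMIs in all 70 KP basophils. Mcpt8 (chr14:56082166-56085273) had 187 UMIs in 21 KPT basophils and 527 in 55 KP basophils. Gata2 (chr6:88193891-88207032) had 96 UMIs in 24 KPT and 297 in 46 KP basophils, and Ms4a2 (chr19:11615523-11623719) 25 in 14 KPT and 61 in 35 KP basophils. All coordinates are GRCm38 (mm10) and each of these is a protein-coding gene.

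Genes that the rule did not use were also those of basophils. Cd200r3, an activating receptor of basophils and mast cells, had 64 UMIs in 21 KPT basophils and 151 in 57 KP basophils, at 411 and 423 CPM, against 0.480 and 0.815 CPM in all other barcodes. Fcer1a, the IgE-binding chain of the receptor, had 50 UMIs in KPT and 64 in KP basophils. Csf2rb, the shared signalling chain for IL-3, GM-CSF and IL-5, was found in 27 of 31 KPT and 61 of 70 KP basophils. Prss34, another mouse basophil protease, had 0 UMIs in KPT and 1 in KP, and Il3, the growth factor of basophils, had 0 in both. By their ratio to other barcodes the 20 leading genes were Cyp11a1, Cd200r3, Gata2, Mcpt8, Ms4a2, Il4, Fcer1a, Defb40, Hgf, Il6, Car8, Itga2b, Slco2b1, Hs3st1, Hdc, Cpa3, Aqp9, Il13, Ccl4 and Ccl3. Each had at least 106 times the CPM of the remaining barcodes in both libraries, which describes the selected barcodes and is no test. Hgf, hepatocyte growth factor, was one of them at 450 CPM in KPT and 435 CPM in KP basophils, against 1.48 and 1.25 CPM elsewhere.

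Markers of other cells were few in most basophils, and their median level per barcode was 0 in both libraries for mast cells, eosinophils, neutrophils, T cells, NK cells, B cells, macrophages or monocytes, dendritic cells and plasmacytoid dendritic cells. The 7 genes of type 2 innate lymphoid cells (ILC2) were the exception, with a median of 166 CPM in KPT and 153 CPM in KP. They had 186 UMIs in KPT and 262 in KP, of which Areg held 97 in 3 barcodes and 167 in 4. The highest single barcode reached 9576 CPM in KPT and 16836 CPM in KP. Summed over 8 eosinophil genes there were 6 UMIs in KPT and 10 in KP basophils, of which Siglecf had 5 and 9, while Epx, Prg2, Ear1, Ear6 and Il5ra were at 0 in both. The 5 B cell genes had 1 and 3 UMIs, with Ms4a1 at 0 in both. The 4 genes of plasmacytoid dendritic cells had 15 and 21, with Siglech at 0 in both. Summed over 9 neutrophil genes there were 10 UMIs in KPT and 83 in KP, and over 7 T cell genes 23 and 25. The 8 macrophage or monocyte genes had 23 UMIs in KPT and 125 in KP, the 5 dendritic cell genes 8 and 162, the 5 NK cell genes 63 and 4, and the 9 mast cell genes 1195 and 1. Single barcodes held 1194 of the mast cell, 61 of the NK cell and 139 of the dendritic cell UMIs. In KPT, 1 barcode of 11280 UMIs held 438 Mcpt1 and 739 Mcpt2 UMIs, 2 mast cell proteases, with 15 Kit UMIs and 0 of Mcpt8, Hdc, Il4, Il6 and Il13. Another KPT barcode, of 12510 UMIs, held 28 Il5, 5 Gata3 and 120 Ccl1 UMIs, genes of type 2 lymphocytes and activated T cells, beside 35 Il6, 32 Il13 and 533 Ccl3. In KP, 1 barcode of 16975 UMIs held 269 Cd74 and 135 H2-Ab1 UMIs, antigen presentation genes of dendritic cells, and 293 Cst3 UMIs. A KPT barcode of 6017 UMIs held 51 Gzma, 4 Ncr1 and 4 Prf1 UMIs, genes of NK cells, and had 0 Mcpt8. The deepest KP member, of 17536 UMIs, held 47 Apoe UMIs, with 7 Gata2 and 4 Hdc but 0 Mcpt8, Il4, Il6, Il13 and Ccl4 and 1 Ccl3. A KP barcode of 2900 UMIs held 41 UMIs of neutrophil genes and 1 each of Hdc and Cyp11a1. A further choice, made after seeing the data, left out barcodes with at least 10 UMIs of another cell's marker list, ILC2 aside, or 5 of Il5. This left 28 KPT and 66 KP basophils. The basophil share was then 0.492% in KPT and 1.20% in KP, and the CPM ratios of KPT over KP were 1.65 for Il4, 1.47 for Il6, 1.69 for Il13, 1.54 for Ccl3 and 1.19 for Ccl4.

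CCL3 and CCL4 transcripts dominated these cells. Both encode chemokines of inflammation, and their genes lie beside each other at chr11:83647844-83649355 (Ccl3) and chr11:83662584-83664683 (Ccl4). Ccl4 and Ccl3 were the most abundant genes of the basophils, and together took 13.9% of all basophil UMIs in KPT and 11.1% in KP. The next were Malat1, a nuclear RNA, at 17080 CPM in KPT and 17929 CPM in KP, and Cxcl2, a neutrophil chemokine, at 16302 and 18431 CPM.

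Ccl3 had 10009 UMIs in KPT basophils, with a lowest, median and highest barcode of 4, 262 and 930, against 15636 UMIs in KP basophils with 1, 200 and 651. That is 64340 CPM in KPT (63086 to 65613) and 43852 CPM in KP (43167 to 44545), a ratio of 1.47 (1.43 to 1.505). The barcodes of the 2 libraries overlapped over most of their range. Every basophil had a Ccl3 UMI, and 31 of 31 in KPT and 68 of 70 in KP had a Ccl4 UMI. The B cell gate took barcodes with at least 1 Cd79a UMI, fewer than 2 summed Cd3e, Cd3d and Cd3g UMIs and fewer than 3 of C1qa, C1qb and C1qc. In it Ccl3 was present in 7.28% of KPT and 11.0% of KP barcodes and Ccl4 in 10.6% and 13.5%. Ccl4 had 11632 UMIs in KPT basophils, with 18, 337 and 1041, against 23814 in KP basophils with 0, 328 and 829. Its levels were 74773 CPM in KPT and 66787 CPM in KP, and the ratio 1.12 (1.09 to 1.14). Within cells the 2 chemokines went together: Spearman's rho of their shares of the barcode's UMIs was 0.77 over 31 KPT and 0.73 over 70 KP barcodes, which share a library and its depth.

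IL-4, the cytokine that drives type 2 T cell and B cell responses, is made from Il4 (chr11:53602982-53618669). Il4 UMIs were present in 18 of 31 KPT basophils (58.1%, 39.1 to 75.5) and in 45 of 70 KP basophils (64.3%, 51.9 to 75.4). In the B cell gate, which should lack it, the share was 0 of 151 KPT and 2 of 245 KP barcodes. The medians there were 3594 and 3764 UMIs per barcode, against 4537 and 4449.5 in basophils. Thinned to 1000 UMIs each, 38.7% of KPT and 38.6% of KP basophils still had an Il4 UMI.

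The amount of Il4 was uneven between cells. KPT basophils held 550 UMIs with a lowest, median and highest barcode of 0, 1 and 205, against 834 UMIs with 0, 1 and 101 in KP basophils. In KPT 2 barcodes held at least 50% of these UMIs, and in KP 6 did. The level was 3536 CPM in KPT (3246 to 3844) and 2339 CPM in KP (2183 to 2503), a ratio of 1.51 (1.35 to 1.69). A single KPT barcode of 8195 UMIs held 37.3% of the Il4 UMIs, and it also held the most Ccl3 and Ccl4. Without the top barcode of each library the Il4 ratio was 1.11 (0.978 to 1.27), so much of the difference in summed Il4 came from that barcode. The KPT total there still includes the 2 deep barcodes with mast cell proteases or Il5, which had 0 Il4 UMIs. A ratio without those and the top barcodes was not computed.

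IL-6, an inflammatory cytokine that acts on T cells, B cells and liver, was the most widely detected of the interleukins. Its gene, Il6 (chr5:30013114-30019981), had UMIs in 29 of 31 KPT basophils (93.5%, 78.6 to 99.2) and 64 of 70 KP basophils (91.4%, 82.3 to 96.8). The B cell gate had 0 of 151 and 1 of 245. Thinned, the shares were 83.9% in KPT and 75.7% in KP. KPT basophils held 636 UMIs with a lowest, median and highest barcode of 0, 15 and 74, and KP basophils 1053 with 0, 8.5 and 71. The level was 4088 CPM in KPT (3777 to 4419) and 2953 CPM in KP (2777 to 3137), a ratio of 1.38 (1.25 to 1.53). It was 1.34 without the top barcodes and 1.12 (0.901 to 1.40) after thinning, where the interval spans 1.

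IL-13, a cytokine close to IL-4 that acts on epithelium and macrophages, is encoded beside it at chr11:53631324-53634702. Il13 UMIs were found in 23 of 31 KPT basophils (74.2%, 55.4 to 88.1) and 43 of 70 KP basophils (61.4%, 49.0 to 72.8), against 1 of 151 and 0 of 245 in the B cell gate. Thinned, the shares were 41.9% in KPT and 38.6% in KP. KPT basophils held 436 UMIs with a lowest, median and highest barcode of 0, 3 and 81, and KP basophils 610 with 0, 2 and 60. The level was 2803 CPM in KPT (2546 to 3079) and 1711 CPM in KP (1578 to 1852), a ratio of 1.64 (1.45 to 1.86). The ratio was 1.53 (1.33 to 1.75) without the top barcodes and 1.32 with every barcode weighted equally. In KPT 3 barcodes held at least 50% of the Il13 UMIs, and in KP 8 did. For each of the 5 genes the barcodes of KPT and KP overlapped.

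**Figure D1:**
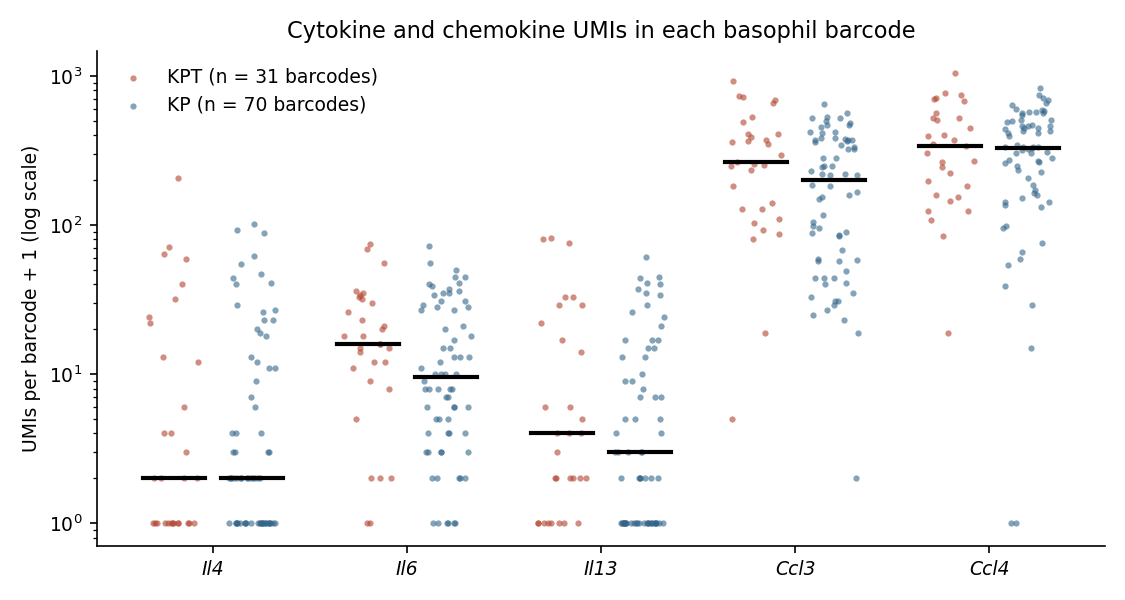
UMIs of Il4, Il6, Il13, Ccl3 and Ccl4 in each basophil barcode, plotted as UMIs plus 1 on a log axis, with 31 KPT barcodes left of 70 KP barcodes for each gene and a black line at the median. The highest Il4 point in KPT, at 205 UMIs, stands apart from the other KPT barcodes, whereas Ccl3 and Ccl4 are high in nearly all barcodes.

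The interleukins were found together in many cells. All 3 of Il4, Il6 and Il13 were present in 15 of 31 KPT and 33 of 70 KP basophils, and 30 KPT and 67 KP basophils had at least 1. Il4 without Il6 was seen in 1 KPT and 3 KP basophils, while Il6 without Il4 was seen in 12 and 22. Basophils with an Il4 UMI had 4292 CPM of Il13 in KPT and 2539 CPM in KP, against 1091 CPM in KPT and 241 CPM in KP basophils without one. Gata2 split the same way, at 818 CPM in KPT and 1044 CPM in KP basophils with Il4, against 387 and 459 CPM in those without. In KP, 71 of the 238 Gata2 UMIs in basophils with Il4 lay in 1 barcode, which had 1 Il4 UMI. Mcpt8 was not higher with Il4 in KPT, where it had 1130 CPM in basophils with Il4 and 1285 CPM in those without. In KP it had 1684 CPM with Il4 and 1113 CPM without. Median depth was close in the 2 sets, at 4457 and 4902 UMIs in KPT and 4549 and 4426 in KP. The KPT set without Il4 holds the barcodes named above with mast cell proteases or Il5. The KP set without Il4 holds those of 16975, 17536 and 2900 UMIs, which had 1, 0 and 0 Mcpt8 UMIs. These barcodes add to the totals by which the CPM without Il4 are divided, and the split without them was not computed.

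Although few, the basophils held much of the cytokine RNA of the whole library. They held 64.9% of all Il4 UMIs in KPT (61.5 to 68.1) and 77.7% in KP (75.0 to 80.1). They held 45.6% of Il6 UMIs in KPT and 76.7% in KP. For Il13 the shares were 25.8% in KPT and 60.3% in KP. They held 38.9% of Ccl3 UMIs in KPT and 49.1% in KP, and 24.7% of Ccl4 UMIs in KPT and 49.2% in KP. The KPT basophils thus held a smaller share of each of the 5 than the KP basophils. After thinning to 1000 UMIs per barcode this held for Il6, Il13 and Ccl4, whereas KPT basophils held the larger share of Il4 (86.8% in KPT, 82.6% in KP) and of Ccl3 (48.9% in KPT, 44.8% in KP).

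**Figure D2:**
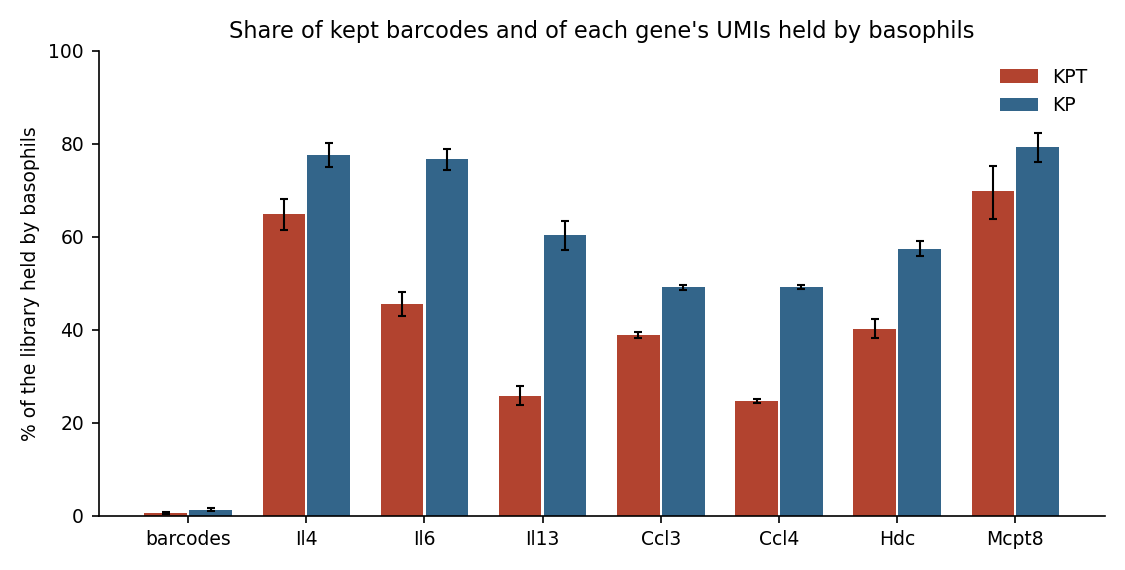
Percent of filtered barcodes that are basophils, and percent of each gene's UMIs in the library held by basophils, in KPT (left bar) and KP (right bar), with exact 95% intervals for counting error. Basophils are 0.545% of barcodes in KPT and 1.27% in KP, and hold 64.9% and 77.7% of Il4 UMIs.

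The remaining UMIs lay in different places for different genes. With the deep barcodes that failed an exclusion added, the held share was 76.1% in KPT and 89.9% in KP for Il4, and 74.3% and 82.3% for Il6. For Il13 it was 35.6% in KPT and 64.7% in KP. T cell gate barcodes held 818 Il13 UMIs in KPT, or 48.3% of that library's total, and 251 in KP. Barcodes with 4 or more of 7 markers of type 2 innate lymphoid cells, a gate set after its values were seen, had Il13 in 13 of 59 KPT and 13 of 62 KP barcodes. Their levels of 208 and 249 CPM were below those of basophils. Ccl3 was present in 74.0% of KPT and 72.7% of KP barcodes of the neutrophil gate (a Csf3r UMI and at least 3 of S100a8 and S100a9), but at 6467 and 7903 CPM.

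Over all filtered barcodes the order of the libraries differed from that within basophils. Il4 stood at 16.2 CPM in the KPT library and 27.1 CPM in the KP library, a ratio of 0.598 (0.546 to 0.655). Il6 stood at 26.7 and 34.6 CPM, a ratio of 0.771 (0.715 to 0.831), Ccl3 had a ratio of 0.613 and Ccl4 one of 0.737. Il13 was the exception, at 32.4 CPM in KPT and 25.5 CPM in KP, a ratio of 1.27 (1.17 to 1.37). The library-wide CPM of Il4, Il6, Ccl3 and Ccl4 was therefore lower in KPT, while the CPM within basophils was 1.12 to 1.51 times that of KP. In UMIs the Il6 totals were 1396 in KPT and 1373 in KP.

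Across genes with at least 50 UMIs over the basophils of both libraries, 9.39% of 1022 were 1.5-fold or more higher in KPT and 17.5% were 1.5-fold or more lower. For genes with at least 20 UMIs these were 12.7% and 22.1% of 2115, with a median log2 ratio of -0.09. The list counts in what follows use the minimum of 20 and are to be read beside these shares. The other filtered barcodes, which hold far more UMIs, gave 4.56% higher and 3.12% lower of 12993 genes at the minimum of 50. Of the 5 cytokine genes, Il4 and Il13 passed 1.5-fold, and Il4 did not without the top barcode of each library. Il13 did not with every barcode weighted equally, at 1.32.

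**Figure D3:**
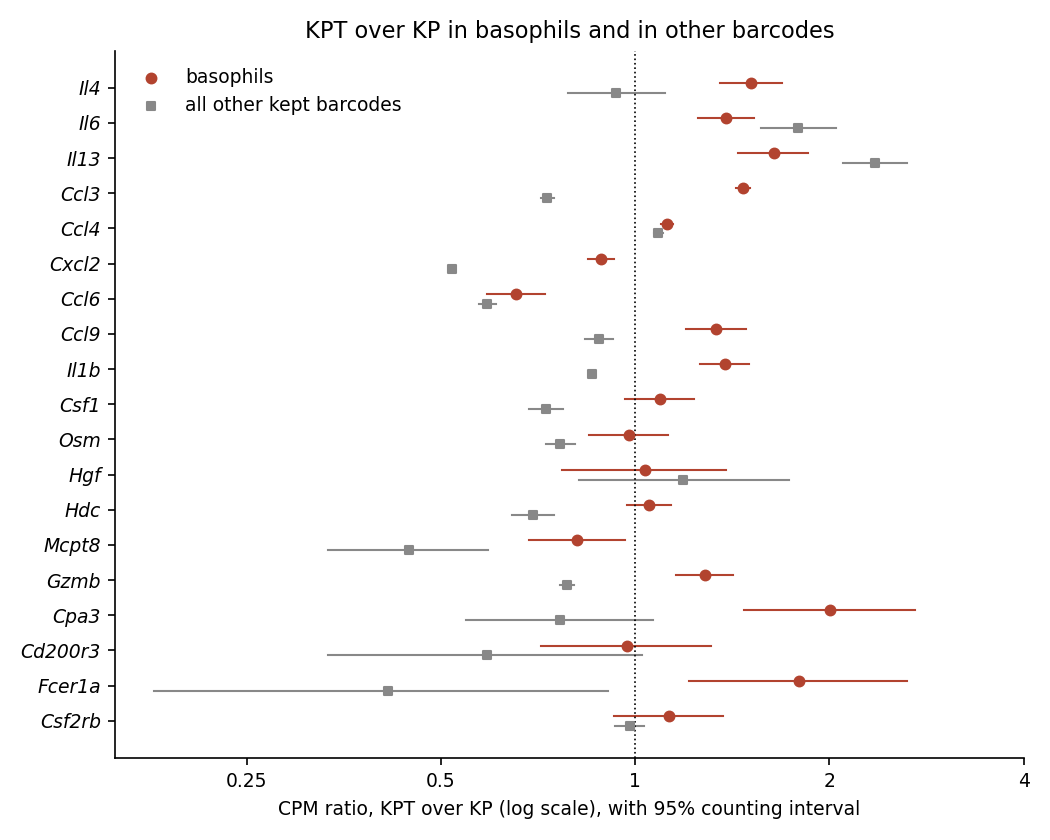
CPM ratio of KPT over KP on a log axis for secreted factors, granule genes and receptors, with 95% counting intervals, in basophils (circles) and in all other filtered barcodes (squares). Ccl3 is 1.47 in basophils and 0.731 in other barcodes, and Il13 is above 1 in both.

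Among 23 measured cytokines and growth factors (at least 20 UMIs), 6 were 1.5-fold or more higher in KPT and 4 lower, with a median log2 ratio of 0.16. Beside Il4 and Il13 the higher ones were Ccl1, Ccl5, Csf2 and Il5, and each of these came mostly from 1 barcode. Without the top barcode of each library the Il4 ratio fell to 1.11, whereas the Il13 ratio stayed above 1.5. With every barcode weighted equally the Il13 ratio was 1.32, and 3 KPT barcodes held at least 50% of the KPT Il13 UMIs. Ccl1 had 122 UMIs in KPT and 1 in KP, of which 98.4% in KPT lay in the Il5-bearing barcode. Ccl5 had 140 and 13 UMIs, with 133 of the KPT ones in another barcode. Csf2, which encodes GM-CSF, had 54 UMIs in 3 KPT barcodes and 11 in 1 KP barcode. The lower ones were Ccl6, Cxcl3, Il1a and Lif. Ccl6, a myeloid chemokine, was the only one of these with many UMIs, at 3066 CPM in KPT and 4692 CPM in KP, a ratio of 0.653 (0.589 to 0.724). Its ratio in the other barcodes was 0.590. Ccl9, a related chemokine, had a ratio of 1.33 (1.20 to 1.49) in basophils, and Il1b, a proinflammatory cytokine, 1.38 (1.26 to 1.503). Csf1, the macrophage growth factor, was at 2423 CPM in KPT and 2221 CPM in KP, and Osm, a cytokine of the IL-6 family, at 1851 and 1893 CPM. Their ratios were 1.09 (0.963 to 1.23) and 0.978 (0.849 to 1.12).

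Granule genes were close in the 2 libraries, with a median log2 ratio of 0.03 over 12 measured, 2 higher and 1 lower. Hdc stood at 5811 CPM in KPT and 5531 CPM in KP, a ratio of 1.05 (0.970 to 1.14). Mcpt8 had a ratio of 0.813 (0.685 to 0.963). Gzmb, a granule protease of cytotoxic cells, was at 3825 CPM in KPT and 2981 CPM in KP basophils. The higher ones were Cpa3, a mast cell and basophil carboxypeptidase, with a ratio of 2.003 (1.47 to 2.72), and Slc18a2, which loads histamine into granules, with 1.59 (1.05 to 2.38). In KPT 36.1% of Cpa3 UMIs lay in 1 barcode. The lower one was Ctsb, a lysosomal protease, with 0 UMIs in KPT and 20 in KP. Of 5 measured genes of lipid mediators, Ptgs2, the inducible prostaglandin enzyme, was at 2481 CPM in KPT and 2471 CPM in KP, and Alox5ap, which serves leukotriene synthesis, had a ratio of 0.795 (0.673 to 0.936).

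Of 26 measured surface receptors, 1 was higher and 4 were lower, with a median log2 ratio of -0.13. Of all genes at that minimum 12.7% were higher and 22.1% lower. Fcer1a was the higher one, at 321 CPM in KPT and 179 CPM in KP, a ratio of 1.79 (1.21 to 2.63), with 14 of its 50 KPT UMIs in 1 barcode. Fcer1g, the signalling chain of the IgE receptor, had a ratio of 0.793 (0.689 to 0.911), and Ms4a2 one of 0.939 (0.565 to 1.52). Il3ra, the specific chain of the IL-3 receptor, had 6 UMIs in 5 KPT and 48 UMIs in 33 KP basophils, a ratio of 0.287 (0.1002 to 0.670). The shared chain Csf2rb had a ratio of 1.13 (0.926 to 1.37). Cxcr4, a homing receptor, was at 283 CPM in KPT and 494 CPM in KP, a ratio of 0.573 (0.402 to 0.801). The IL-33 and IL-18 receptor genes Il1rl1 and Il18r1 had 20 and 34 UMIs in KPT and 36 and 64 in KP. Among 12 measured genes of IgE receptor signalling 0 were higher and 2 lower, against the same shares of all genes, and the median was -0.19. Nfkbia, an inhibitor of NF-kappaB, was the one with most UMIs there, at 0.823 (0.731 to 0.924).

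Transcription factor genes had a median log2 ratio of 0.42 over 27 measured, with 9 higher and 3 lower. The higher ones with most UMIs were Nr4a1, Runx1 and Atf3. Nr4a1, an orphan nuclear receptor, was at 1646 CPM in KPT and 917 CPM in KP, a ratio of 1.79 (1.52 to 2.12). Atf3, a stress-induced factor, had a ratio of 2.41 (1.66 to 3.50). Runx1, a factor of blood cell development that basophils use, was at 501 CPM in KPT and 261 CPM in KP, in 26 of 31 and 48 of 70 barcodes, a ratio of 1.92 (1.40 to 2.63). In other barcodes these 3 genes had ratios of 1.07, 1.03 and 1.27. Egr1, another immediate early factor, had a ratio of 1.34 (1.20 to 1.48). Jun, Junb, Jund and Egr3, also immediate early genes, had ratios of 0.983, 0.970, 0.799 and 1.01. Gata2 stood at 0.741 (0.582 to 0.936), and 1 barcode held 23.9% of its KP UMIs. Bhlhe40 was lower at 0.539 (0.292 to 0.940). Without barcodes that lacked Mcpt8 the list median was 0.094.

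Hypoxia and glycolysis genes were on the lower side in KPT basophils. Of 20 measured, 10 were 1.5-fold or more lower and 1 was higher, with a median log2 ratio of -0.59. All of the lower ones but Mif, a cytokine, encode glycolytic enzymes. In the other barcodes 1 of the same genes was that much lower and the median was -0.31. Gapdh, a glycolytic enzyme, was at 321 CPM in KPT and 583 CPM in KP, a ratio of 0.551 (0.396 to 0.753). Eno1 had a ratio of 0.341 (0.130 to 0.760), Pkm 0.567 (0.347 to 0.894) and Aldoa 0.653 (0.481 to 0.876), all 3 enzymes of glycolysis. Ldha, which makes lactate, had 0.751 (0.506 to 1.09). The higher gene was Slc2a3, a glucose transporter with 16 UMIs in KPT and 21 in KP. Hilpda, a lipid droplet gene induced by hypoxia, was at 1774 CPM in KPT and 1520 CPM in KP, and Ero1l, an oxidase of the endoplasmic reticulum, had a ratio of 1.499 (1.22 to 1.84).

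**Figure D4:**
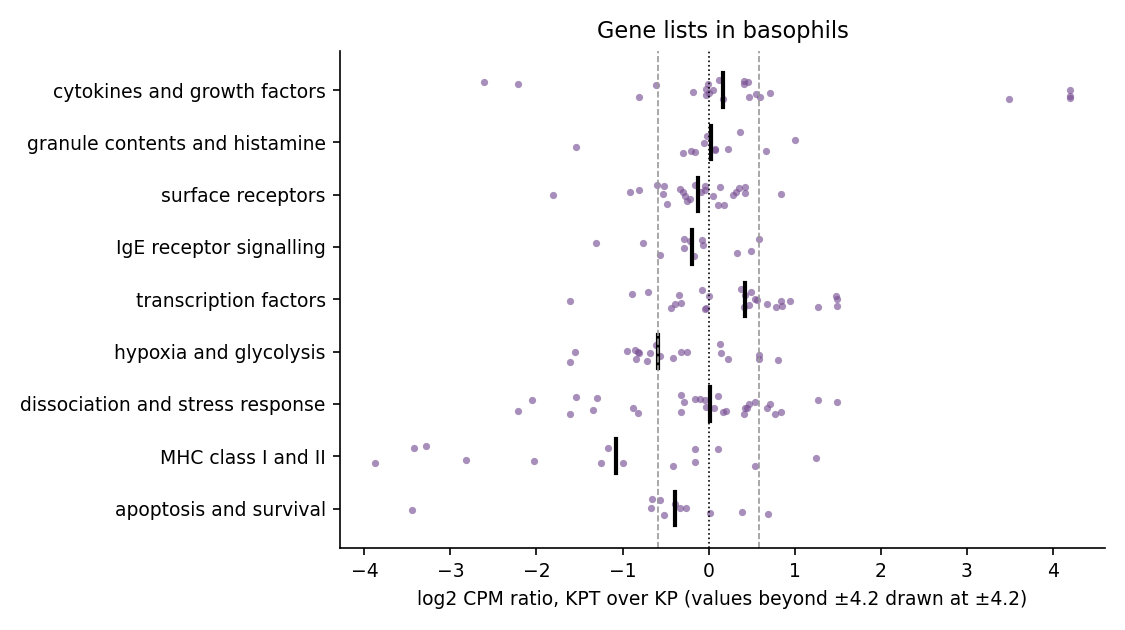
Log2 CPM ratio of KPT over KP in basophils for each measured gene of 9 lists (points) with the list median (black bar); dashed lines mark 1.5-fold and values beyond 4.2 are drawn at 4.2. Hypoxia and glycolysis has a median of -0.59 and transcription factors one of 0.42.

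Genes of the dissociation and stress response were divided, with 6 of 30 higher, 8 lower and a median of 0.02. The shares over all genes were 12.7% higher and 22.1% lower. The heat shock genes Dnajb1 and Hsp90aa1, which encode chaperones, had ratios of 0.407 (0.326 to 0.503) and 0.565 (0.446 to 0.711). In KPT 40.2% of the Dnajb1 UMIs, and in KP 21.2%, lay in 1 barcode. Btg2, Dusp1 and Klf6, immediate early genes, had ratios of 1.60 (1.36 to 1.89), 1.71 (1.41 to 2.06) and 1.80 (1.37 to 2.36). Of 7 measured interferon and Ifitm genes, Ifitm1 was the most abundant at 8254 CPM in KPT and 11790 CPM in KP, a ratio of 0.700 (0.657 to 0.745), against 0.612 in other barcodes. Ifitm3 had a ratio of 0.355 (0.210 to 0.572). Ifitm genes encode membrane proteins that limit viral entry.

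Antigen presentation genes were on the lower side in KPT, and for the class II genes most KP UMIs lay in 1 barcode. Of 14 measured, 8 were lower in KPT and 1 was higher, with a median log2 ratio of -1.08. Cd74, the chaperone of MHC class II, had 13 UMIs in 10 KPT barcodes and 319 UMIs in 13 KP barcodes, but 84.3% of the KP UMIs lay in the 1 barcode with dendritic cell genes. Its ratio was 0.0934, and 0.447 (0.202 to 0.892) without the top barcode of each library. H2-Ab1 had a ratio of 0.103, and 0.538 (0.158 to 1.47) without the top barcodes. The same barcode held 77.3% to 86.5% of the KP UMIs of H2-Aa, H2-Ab1 and H2-Eb1. Of the class I pathway it held 64.3% of Psmb9 and 36.7% of Psmb8, both immunoproteasome subunits, but 9.68% of Tap2, a peptide transporter chain, and 4.88% of H2-Q4. Without this barcode alone 7 of the same 14 were lower and 1 was higher, with a median of -0.53. One of the 7 is Psmb9, left with 3 UMIs in KPT and 10 in KP, which is below the minimum of 20. Without the barcodes left out above for markers of another cell, a choice that itself uses H2-Ab1, the ratio of Cd74 was 1.08 (0.460 to 2.36). The class I gene H2-K1 was at 1466 CPM in KPT and 1010 CPM in KP basophils.

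Of 11 measured survival genes 1 was higher and 3 were lower, with a median of -0.39, beside 12.7% higher and 22.1% lower of all genes. Cdkn1a, a p53 target that halts the cell cycle, was at 733 CPM in KPT and 454 CPM in KP, a ratio of 1.61 (1.26 to 2.06). Mcl1, which keeps granulocytes alive, had a ratio of 0.792 (0.627 to 0.993), and Pim1, a survival kinase, 1.31 (1.17 to 1.46). Of the genes of cytosine demethylation and repair, the pathway of Tdg, 3 had 20 UMIs or more. Gadd45a had 7 UMIs in KPT and 61 in KP, a ratio of 0.263 (0.101 to 0.575), Gadd45b 60 and 70, a ratio of 1.96 (1.37 to 2.81), and Tet2 10 and 27, a ratio of 0.849 (0.367 to 1.81). Gadd45a and Gadd45b encode stress sensors, and Tet2 an enzyme that oxidises methylcytosine.

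The genes farthest from equal levels, ranked by the bound of the interval nearest to 1, were higher in KPT for Eprs, Alyref, Prcp, Rrad, Rel, Inhba, Glul, Etv3, Hmgb2 and Neat1. Those with most UMIs were Neat1, a nuclear RNA (chr19:5824708-5845478), and Hmgb2, a chromatin protein. Neat1 had 548 UMIs in 31 KPT basophils and 645 in 63 KP basophils, a ratio of 1.95 (1.73 to 2.19), against 1.13 in other barcodes. Hmgb2 had 185 UMIs in 26 KPT and 192 in 50 KP basophils, a ratio of 2.21 (1.79 to 2.72), against 0.991 in other barcodes. Rel, a subunit of NF-kappaB (chr11:23736847-23770970), had 91 UMIs in 20 KPT and 80 in 30 KP basophils, a ratio of 2.61 (1.91 to 3.57). Glul, glutamine synthetase, had a ratio of 2.69 (1.83 to 3.97) with UMIs in 16 KPT and 24 KP barcodes. These 4 were 1.61 to 3.60 over all alternatives. Eprs, a tRNA ligase, rested on 1 barcode that held 66.7% of its KPT UMIs. Without the barcodes over 2 times the median depth its ratio was 1.42 (0.221 to 7.31).

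The lower ones were Cd74, H2-Aa, H2-Ab1, H2-Eb1 and Cst3, all led by the KP barcode with dendritic cell genes, and Atox1, Gzmc, Bcl2a1b, Bloc1s2 and Hhex. Hhex, a homeobox factor of blood cells, had 9 UMIs in 7 KPT and 111 UMIs in 31 KP basophils, a ratio of 0.186 (0.0828 to 0.366), against 1.11 in other barcodes. Atox1, a copper chaperone, had 2 UMIs in KPT and 74 UMIs in 26 KP basophils, and 1 KP barcode held 37.8% of them. Bloc1s2, a subunit of a complex that forms lysosome-related organelles, had 0 UMIs in KPT and 26 in 19 KP basophils. Gzmc, a granzyme of cytotoxic cells, had 120 KP UMIs of which 59.2% lay in 1 barcode. These genes were found by their values, so the ratios are a description and not a test.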

How the data were processed

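Raw UMI counts per gene and barcode were deposited by the authors as 1 matrix per library, made with Cell Ranger 6.0.1 per the file headers. The genome build mm10 and Seurat are named in the submitters' processing notes. The matrix lists 32285 genes. The filter took barcodes with 200 or more genes and no more than 10% of mitochondrial UMIs, and the basophil rule was applied to the raw counts. The members, gene lists and gates were chosen with earlier results of these data known. With 1 library per genotype no test was run. Counts were summed over the basophils of each library and divided by their total UMIs (CPM). Shares have exact Clopper-Pearson 95% intervals, CPM exact Poisson intervals, and CPM ratios, KPT over KP, exact conditional Poisson intervals. All of these cover counting error only. Genes count toward a list from 20 UMIs over both libraries, and a list median is given from 10 such genes. A gene listed with 0 UMIs in 1 library enters a median at a floor of 3 counts.

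Genes were named as the rule's and its cytokines, as the 10 each way with the interval bound nearest to 1 farthest from 1 (at least 20 UMIs and 10% of barcodes on the higher side), as the 20 leading genes over other barcodes, and as examples from each list. Motif matches in RefSeq promoter windows were counted on both strands. The 17 alternatives, 2 of them chosen after seeing the data, changed the marker number, filters, depth, weighting, scaling and minimum. The ratio and interval code was tested on simulated data. Analysis used Python 3.11.15, numpy 2.4.6, scipy 1.17.1, pandas 2.3.3 and matplotlib 3.10.9.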

Additional observations from a re-analysis of the deposited data

How the results depend on the processing

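With 1 library per genotype the limits are those of counting in 31 KPT and 70 KP barcodes, and a single barcode can carry a gene. The KPT share was below the KP share under every alternative tried, with a ratio from 0.369 to 0.475, or 0.514 with the barcodes that failed an exclusion added. The 5 cytokine ratios stayed above 1, at 1.11 to 1.78 for Il4, 1.12 to 1.55 for Il6, 1.32 to 1.99 for Il13, 1.37 to 1.64 for Ccl3 and 1.05 to 1.29 for Ccl4. The intervals reached below 1 for Il4 without the barcode with the most UMIs and for Il6 after thinning. None of these ratios turned direction, whereas the single-gene ratios of Cd74, H2-Aa, H2-Ab1 and H2-Eb1 did. KPT basophils held the smaller share of Il6, Il13 and Ccl4 UMIs in each alternative, but after thinning they held the larger share of Il4 and Ccl3. No paired analysis was possible because each genotype has 1 library.

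Shares, cytokine ratios, gene counts and list medians that moved beyond their counting interval, or beyond 1.5 times for counts of genes and 0.2 for list medians, follow, with the ratios that turned. Of the other single-gene ratios 28 moved and 248 did not. Of the percentages of basophils with a UMI 9 moved and 91 did not, and among them the KP basophils with an Il6 UMI reached 98.2% without barcodes that had no Mcpt8 UMI. The cause was not tested beyond what each alternative leaves out. Without barcodes that had no Mcpt8 UMI, the basophil share was 0.369% in KPT. KPT basophils held 45.2% of Il4, 33.4% of Il6, 20.4% of Il13, 28.1% of Ccl3 and 17.9% of Ccl4 UMIs. KP basophils held 66.3% of Il4, 66.1% of Il6, 50.4% of Il13, 42.6% of Ccl3 and 41.9% of Ccl4 UMIs. The ratios were 1.41 for Ccl3 and 1.09 for Ccl4. The log2 median was 0.50 for cytokines and growth factors, -0.53 for IgE receptor signalling, 0.094 for transcription factors and -0.60 for apoptosis and survival. Over barcodes outside the T cell gate, the basophil share was 1.21% in KPT and 2.54% in KP. With every barcode thinned to 1000 UMIs, KPT basophils held 86.8% of Il4, 72.8% of Il6, 38.7% of Il13, 48.9% of Ccl3 and 38.2% of Ccl4 UMIs. KP basophils held 82.6% of Il4, 92.7% of Il6, 69.0% of Il13, 44.8% of Ccl3 and 53.0% of Ccl4 UMIs. The ratios were 1.70 for Il4, 1.12 for Il6, 1.40 for Il13 and 1.09 for Ccl4. The genes past 1.5-fold were 26 higher and 32 lower, against 96 and 179 of 1022 in the main setting. The number of genes that reach the minimum differs between settings, so these counts are not shares. The log2 median was 0.23 for granule contents and histamine, 0.30 for dissociation and stress response and -0.26 for MHC class I and II. Without the 3 KPT and 4 KP barcodes with markers of another cell (chosen after seeing the data, H2-Ab1 among the markers), KPT basophils held 23.6% of Il13, 36.7% of Ccl3 and 23.8% of Ccl4 UMIs. KP basophils held 74.2% of Il6, 48.1% of Ccl3 and 48.2% of Ccl4 UMIs. The ratios were 1.54 for Ccl3, 1.19 for Ccl4, 1.08 for Cd74, 1.24 for H2-Aa, 2.90 for H2-Ab1 and 1.56 for H2-Eb1. Cytokines and growth factors had a log2 median of 0.41 and MHC class I and II -0.51. With at least 3 of the 5 markers, KPT basophils held 37.9% of Ccl3 and 24.1% of Ccl4 UMIs. KP basophils held 56.4% of Il13, 48.3% of Ccl3 and 48.2% of Ccl4 UMIs. The ratios were 1.37 for Ccl3 and 1.05 for Ccl4. The log2 median was 0.40 for cytokines and growth factors. Without barcodes with a Cd3 or C1q UMI, KPT basophils held 37.0% of Ccl3 and 23.5% of Ccl4 UMIs. KP basophils held 71.0% of Il4, 68.3% of Il6, 51.5% of Il13, 44.5% of Ccl3 and 45.3% of Ccl4 UMIs. The ratios were 1.72 for Il4, 1.55 for Il6, 1.99 for Il13, 1.60 for Ccl3 and 1.20 for Ccl4. Cytokines and growth factors had a log2 median of 0.54 and MHC class I and II -1.29. Without barcodes over 2 times the median UMIs, KPT basophils held 36.8% of Ccl3 and 24.0% of Ccl4 UMIs. KP basophils held 73.5% of Il6, 48.3% of Ccl3 and 48.1% of Ccl4 UMIs. The ratio was 1.15 for Ccl4. The log2 median was -0.43 for MHC class I and II. Without the 2 KPT barcodes with mast cell proteases or Il5 (chosen after seeing the data), KPT basophils held 36.8% of Ccl3 and 24.0% of Ccl4 UMIs. The ratios were 1.78 for Il4, 1.54 for Il6, 1.64 for Ccl3 and 1.29 for Ccl4. Cytokines and growth factors had a log2 median of 0.36. Without the barcode with the most UMIs of the gene, the ratio was 1.11 for Il4. With every barcode weighted equally, the ratio was 1.32 for Il13. MHC class I and II had a log2 median of -0.66. With at most 5% mitochondrial UMIs, the ratios were 1.52 for Ccl3 and 1.15 for Ccl4. The log2 median was -1.31 for MHC class I and II. Centred on the median log2 ratio, the ratios were 1.57 for Ccl3 and 1.20 for Ccl4. At a minimum of 100 UMIs, the genes past 1.5-fold were 48 higher and 61 lower. The log2 median was 0.41 for cytokines and growth factors and -1.49 for MHC class I and II. With no minimum, the genes past 1.5-fold were 1881 higher and 1459 lower. There a gene with 1 UMI in each library counts as higher, because KPT basophils hold 155564 UMIs and KP basophils 356565. The turn toward higher genes is therefore not read as a direction. Cytokines and growth factors had a log2 median of 0.41 and hypoxia and glycolysis -0.32.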
